A study of Mus musculus with 4 samples.

Results

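Glycolysis and hypoxia-response genes were followed across the cell types of the mouse inguinal mammary fat pad after a day in the cold. The set held 31 genes of the 31053 listed in the files. They were picked by symbol from pathway knowledge, with earlier results of these data known. The members were 18 transporters and enzymes of glycolysis and lactate handling, 12 target genes of the hypoxia-inducible factors (HIF), and Hif1a. Hif1a encodes a HIF subunit. The 31 symbols stood for 32 rows, since Aldoa is listed under 2 identifiers, of which the second had 7 molecules in all and was not tested.

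Single-cell RNA was counted in the stromal vascular fraction, the cells left when digested fat is freed of its floating adipocytes, of the fourth inguinal white fat depot, which in mice also holds the mammary gland. The 2 cold libraries came from C57BL/6 mice aged 8 weeks that were kept at 4 °C for 24 h. The 2 room-temperature libraries came from mice of the same strain and age kept at room temperature for the same 24 h. Whether each library is a separate animal is not said in the labels, and p-values therefore measure the spread between libraries only.

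Glycolysis converts glucose to pyruvate, and lactate dehydrogenase turns pyruvate into lactate, which leaves the cell through monocarboxylate transporters. HIF proteins are made all the time and destroyed when oxygen is present, because prolyl hydroxylases mark them for degradation; when oxygen falls they enter the nucleus and raise transcription of glycolytic enzymes, mitophagy receptors, collagen prolyl hydroxylases and their own hydroxylases. In fat, cold exposure is known to raise glucose uptake, chiefly in thermogenic adipocytes, which this fraction lacks.

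HIF binds sequences with a short core, of which ACGTG is a common form and the only form searched here. The promoters of genes that passed the test below are shown for that reason. The core was searched on both strands, as ACGTG and CACGT, in the 300 bases from 250 before to 50 after each gene start in RefSeq promoter tables of build GRCm38.p6. It stood in a window of 22 of the 29 members that matched the table by symbol (75.9%), against 5886 of all 27025 genes (21.8%). By role, 12 of 18 glycolysis members (66.7%) and 9 of 10 HIF targets (90%) held it. These are matches of letters, not sites shown to be bound. Bnip3 (chr7:138909457-138909756, minus strand) held 2 overlapping matches, which together spell CACGTG and begin 108 and 107 bases before the start. Mxi1 is shown in 1 of its 3 windows (chr19:53329163-53329462, plus strand), with 1 match 66 bases before that start. Its window at the gene start given below (chr19:53310256-53310555) held 0 matches, and the remaining window (chr19:53329445-53329744) held 1. Tpi1 (chr6:124814109-124814408, minus strand) held no match. No sequence is printed for Bnip3l. Capitals mark the matches, and each line runs from 5′ to 3′ on the gene's strand.
Bnip3: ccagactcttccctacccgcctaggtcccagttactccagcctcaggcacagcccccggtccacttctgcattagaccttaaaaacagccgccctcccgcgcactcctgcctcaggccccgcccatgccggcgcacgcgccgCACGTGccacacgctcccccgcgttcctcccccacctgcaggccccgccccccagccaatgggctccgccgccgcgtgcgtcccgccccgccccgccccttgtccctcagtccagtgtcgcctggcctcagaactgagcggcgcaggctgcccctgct
Mxi1: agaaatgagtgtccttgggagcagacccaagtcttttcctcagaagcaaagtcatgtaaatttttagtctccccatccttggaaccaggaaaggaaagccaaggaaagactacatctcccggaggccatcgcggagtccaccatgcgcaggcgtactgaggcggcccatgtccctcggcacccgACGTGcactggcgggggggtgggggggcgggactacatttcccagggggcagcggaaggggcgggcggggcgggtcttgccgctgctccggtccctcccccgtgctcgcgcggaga
Tpi1: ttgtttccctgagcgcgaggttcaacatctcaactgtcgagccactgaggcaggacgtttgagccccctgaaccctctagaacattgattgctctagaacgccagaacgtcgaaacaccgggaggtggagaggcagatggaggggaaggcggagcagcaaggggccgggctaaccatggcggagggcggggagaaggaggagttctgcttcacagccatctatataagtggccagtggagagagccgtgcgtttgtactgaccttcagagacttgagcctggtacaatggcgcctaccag

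The libraries held 4840 and 3871 cell barcodes in the cold, against 6339 and 4168 at room temperature; each had 35198164 to 55160902 molecules (unique molecular identifiers, UMIs). Of these barcodes 42 occurred in 2 libraries, 23 of them among kept cells. After filtering, 15197 cells remained, of which 13658 fell in 13 classes named from marker genes, and each class name means cells like that type by those markers. Within each library the raw counts of a class were added up, and levels are counts per 1000000 UMIs of that sum (CPM). In such a sum fewer cells expressing a gene cannot be told apart from less RNA per cell. The 10 classes with at least 20 cells in every library were tested with edgeR's quasi-likelihood test; basal, Schwann and neutrophil cells were described only. No cluster was named as adipocytes.

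Across classes the summed level of the 18 glycolysis members was highest in neutrophils (3482.8 ± 401.9 CPM), T cells (3299.6 ± 513.4), luminal hormone-sensing cells of the ducts (3297.5 ± 220.6) and pericytes and smooth muscle (3220.3 ± 300.2), and lowest in fibroblasts and adipose progenitors (1502.6 ± 93.7; SD over the 4 libraries). The 4 highest classes overlapped in their libraries, and the 4 fibroblast libraries (1394 to 1618 CPM) lay below every library of the other 12 classes. The 12 HIF targets summed to 2960.9 ± 763.2 CPM in Schwann cells and 949.4 ± 42.2 CPM in vascular endothelium, against 284.8 ± 16.4 CPM in B cells, the lowest. In both classes the target with the highest level was Ndrg1, a stress-responsive gene, at 2148.9 ± 584.9 CPM in Schwann cells and 401.4 ± 35.5 CPM in endothelium. No class was tested against another, because the classes were formed from the same genes and cells.

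**Figure D1:**
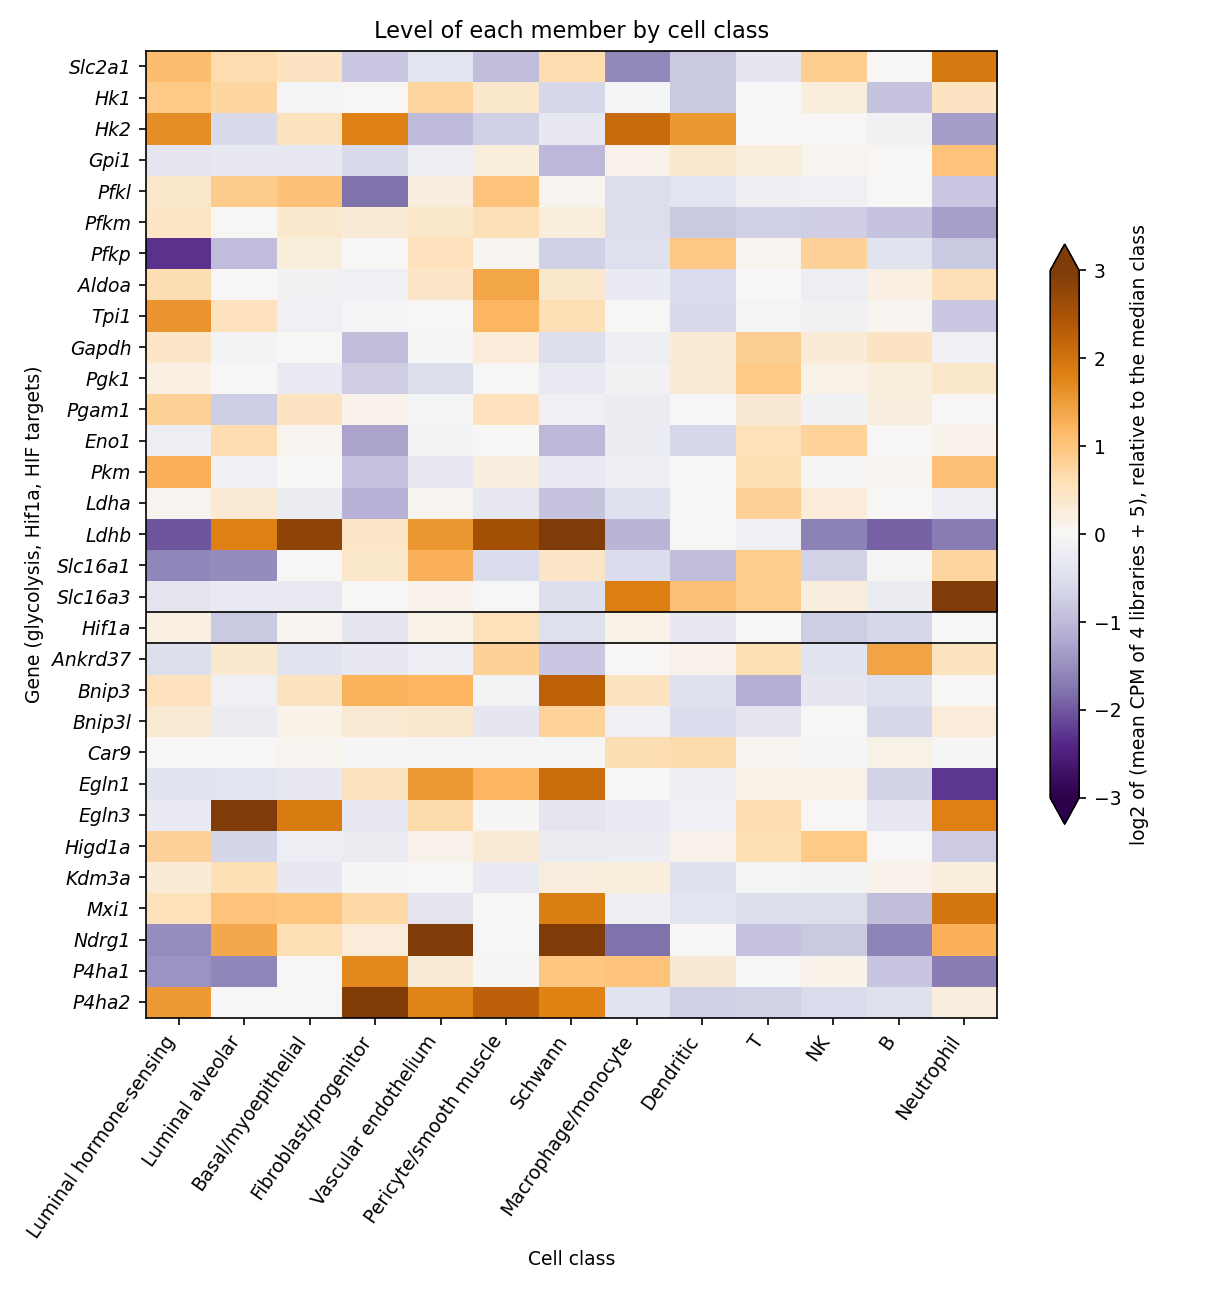
Level of the 31 members (rows) in 13 cell classes (columns), as log2 of the mean CPM of the 4 libraries plus 5, relative to the median class of that gene. The strong colours lie with Ldhb, Slc16a3, Ndrg1, Egln3 and P4ha2, while Gapdh, Pgk1 and Pkm vary less.

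Among the transporters, Slc2a1, the widespread glucose carrier GLUT1, ranged in mean level between 118.8 CPM in neutrophils and 6.2 CPM in macrophages, with 66.8 CPM in hormone-sensing cells and 13.6 CPM in fibroblasts. Slc16a3, the lactate exporter MCT4, had its highest level in neutrophils at 634.7 CPM (213.3 to 1283 over the libraries, from 10 to 33 UMIs each). Macrophages followed at 19.9 CPM, and in the other 11 classes its highest library stood under 5% of the neutrophil mean, a level that RNA free in the droplets could also give. Slc16a1, the related carrier MCT1, had its highest mean in endothelium (40.9 CPM, 26.8 to 51.4) and T cells (30.2 CPM, 23.2 to 36.4), whose ranges overlapped.

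The isozymes of glycolysis divided by cell type more than the summed level did. Of the UMIs of the 2 hexokinases, Hk2, the inducible form, took 59.3 to 70.1% in macrophages, 60.0 to 79.2% in dendritic cells and 53.6 to 63.8% in fibroblasts. It took 35.1 to 43.6% in hormone-sensing cells, 21.8 to 23.9% in T cells and 0.99 to 3.57% in endothelium. Of the 3 phosphofructokinase genes, which share the main control step of glycolysis, Pfkl took 60.1 to 73.4% in hormone-sensing and 56.5 to 67.9% in luminal alveolar cells, but 4.2 to 8.96% in fibroblasts. Fibroblasts and dendritic cells carried mostly Pfkp, at 78.4 to 83.8% and 81.8 to 87.9%.

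Lactate dehydrogenase also divided by cell type. Ldhb, the subunit that favours use of lactate, made up 70.6 to 93.3% of the UMIs of Ldha and Ldhb in Schwann cells, 30.2 to 58.1% in basal cells, 25 to 52.0% in pericytes and 18.9 to 26.3% in fibroblasts. In hormone-sensing cells it was 0.28 to 0.98%, with 9, 21, 26 and 9 UMIs in the 4 libraries, and in the neighbouring alveolar cells 14.4 to 27.4%. Ldha itself was highest in T cells at 465.3 ± 58.1 CPM and lowest in fibroblasts at 120.5 ± 16.5 CPM.

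**Figure D2:**
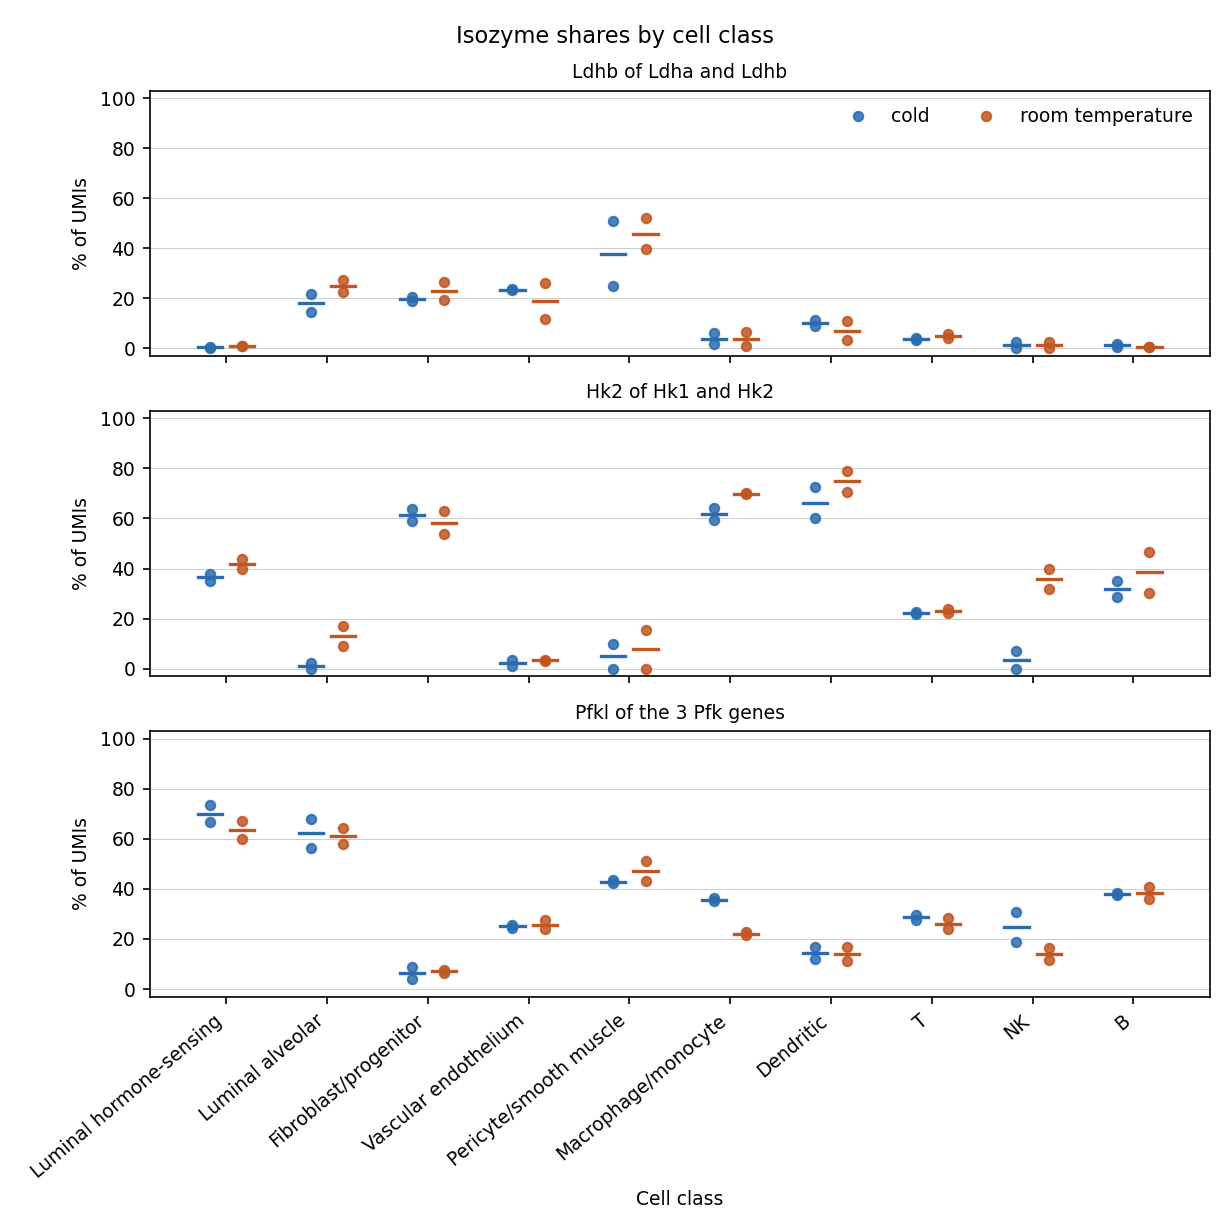
Share of UMIs (%) taken by Ldhb, Hk2 and Pfkl within their isozyme groups in the 10 tested classes; each point is a library, bars are means of 2, cold left of room temperature. Classes differ widely, and in most of them the cold and room-temperature points lie close together.

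The HIF targets were also spread by cell type. Egln3, an oxygen-sensing hydroxylase, reached 48.7 ± 8.3 CPM in alveolar cells and took 58.8 to 69.2% of the UMIs of Egln1 and Egln3 there, against 0.0 to 2.49% in hormone-sensing cells. Egln1, the principal oxygen sensor of the family, had its highest means in Schwann cells (173.6 CPM, 128.3 to 253.6, from 4 to 12 UMIs a library) and endothelium (117.7 CPM, 96.5 to 142.7), whose ranges overlapped. P4ha1 and P4ha2, subunits of the enzyme that hydroxylates collagen, were highest in fibroblasts, at 87.2 ± 20.4 and 64.3 ± 10.98 CPM. Bnip3, a mitophagy receptor, had its highest mean of the tested classes in fibroblasts (37.7 CPM), overlapping endothelium (36.0 CPM), and its lowest in T cells (3.16 CPM). Its relative Bnip3l was present in every class, with class means from 102.4 CPM in B cells to 280.3 CPM in Schwann cells. Car9, a carbonic anhydrase often used as a hypoxia marker, had 97 UMIs in all named classes and was testable in macrophages only. Hif1a was between 43.8 CPM in alveolar cells and 121.5 CPM in pericytes.

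The comparison of cold with room temperature asks whether these genes responded in any cell type after 24 h. A gene was called at an adjusted p under 0.05 (Benjamini-Hochberg over all genes tested in the class). Over the 10 classes 4 member calls were made: Bnip3 rose in fibroblasts, and in T cells Tpi1 rose while Bnip3l and Mxi1 fell. In the other 8 classes edgeR called 0 members, and DESeq2 also called 0. At an unadjusted p under 0.05 (edgeR) there were 6 of 29 members in macrophages, beside 1347 of 10832 genes. Endothelium had 5 of 27, beside 1221 of 10296, and dendritic cells 3 of 24, beside 565 of 7682. Hormone-sensing cells had 2 of 28, beside 986 of 12635, and alveolar cells 2 of 22, beside 946 of 6337. Pericytes had 1 of 16, beside 254 of 3246, NK cells 1 of 20, beside 599 of 4921, and B cells 0 of 23, beside 426 of 7684. An exact permutation test of 2 libraries against 2 cannot give a p under 0.333, so each call rests on the spread that edgeR shares between genes. Where 1 library was left out, 1 library remained in its group. Calls gained or lost in those fits are given only to show dependence on single libraries.

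**Figure D3:**
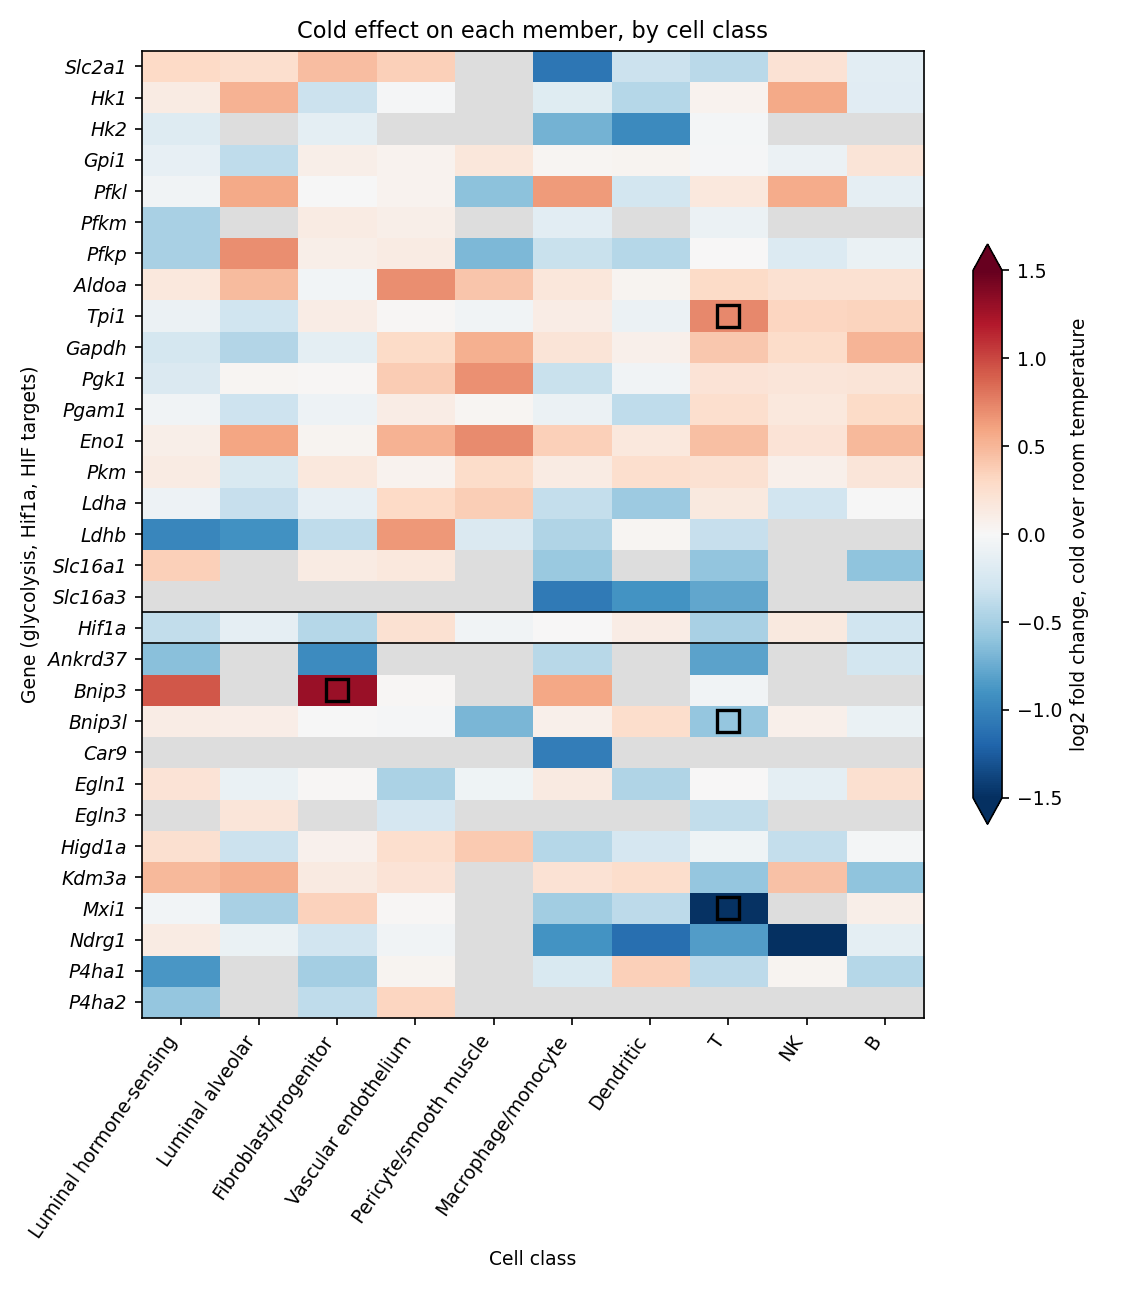
log2 fold change, cold over room temperature, of the 31 members (rows) in the 10 tested classes (columns); grey marks genes too low to test and black squares the 4 calls. Red marks higher and blue lower values in the cold; among enzymes the endothelium and T cell columns are mostly red, and among HIF targets the T cell column is mostly blue.

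In fibroblasts 28 members were tested and 1 was called (3.57%), against 2.77% of all genes in this class in either direction, 1.09% higher and 1.67% lower in the cold, so the members' count was near the background. The groups did not overlap for 3 members that were higher in the cold and 10 that were lower, beside 21.8% and 29.7% of all genes. Bnip3 had 59.7 and 47.6 CPM in the cold libraries, against 26.4 and 17.3 CPM in the room-temperature libraries. Both cold libraries lay above both room-temperature libraries, and the log2 fold change was 1.29 (SE 0.23, adjusted p = 0.0468, edgeR). The gene lies on chromosome 7 (138890836 to 138909519, GRCm38). The call was lost without cold replicate 1 (1.08, adjusted p = 0.218) and without the cluster led by Cxcl13 (1.37, adjusted p = 0.118).

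That cluster made up 56.0 and 40.9% of fibroblasts in the cold libraries, against 2.7 and 0.3% at room temperature, where the cluster led by Igfbp6 and Pi16 was the largest (44.5 and 55.9%). In each of the 4 other clusters the cold libraries lay above the room-temperature libraries for Bnip3, without overlap. In the cluster led by Igfbp6 and Pi16 it had 40.7 and 29.3 CPM in the cold, against 21.7 and 10.8 CPM at room temperature. In the cluster led by Dcn and Apod it had 129.6 and 105.6 CPM in the cold, against 62.4 and 55.5 CPM at room temperature. In the largest cluster alone the log2 fold change was 0.92 (adjusted p = 0.44, edgeR).

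The other fibroblast members did not move together. The 17 glycolysis genes tested had 9 values above 0 and a median log2 fold change of 0.02, beside 0.00 for all genes tested, and the 10 HIF targets 5 above 0 and a median of 0.01. Slc2a1 had 14.2 and 16.7 CPM in the cold, against 10.3 and 13.2 CPM at room temperature (0.46 on the log2 scale, SE 0.19, adjusted p = 0.252). Hif1a had 44.7 and 59.4 CPM in the cold, against 66.7 and 76.4 CPM at room temperature (-0.42, SE 0.14, adjusted p = 0.184). Neither pair of groups overlapped, and neither gene passed the test.

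The collagen hydroxylases lay on the other side of Bnip3. P4ha1 had 73.8 and 67.0 CPM in cold fibroblasts, against 97.3 and 110.8 CPM at room temperature (-0.51, SE 0.12, adjusted p = 0.0895). P4ha2 had 54.2 and 55.5 CPM in the cold, against 73.3 and 74.3 CPM at room temperature (-0.38, SE 0.11, adjusted p = 0.121). Both were lower in both cold libraries without passing the test. Hk2 (39.3 and 34.7 CPM in the cold, against 44.9 and 39.5 CPM at room temperature), Ldha (121 and 105 CPM, against 113 and 143 CPM) and Pgk1, the phosphoglycerate kinase that makes the first ATP of the pathway (64.1 and 64.0 CPM, against 58.4 and 73.3 CPM), had log2 fold changes of -0.15, -0.13 and 0.02, with Ldha and Pgk1 overlapping between groups.

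Beside these values, other measures moved with the groups in fibroblasts. The 13 mitochondrially encoded genes summed to 17149 and 20550 CPM in the cold, against 24732 and 29850 CPM at room temperature, and 11 of them were lower in both cold libraries. The 8 alveolar markers summed to 316 and 301 CPM in the cold, against 236 and 227 CPM at room temperature, 3 of the 8 being higher in both cold libraries. The 7 macrophage markers summed to 34.0 and 25.2 CPM in the cold, against 62.2 and 57.5 CPM, with 5 of the 7 lower. Their part in the Bnip3 result was not tested.

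In T cells 29 members were tested and 3 were called (10.3%), against 2.51% of all genes in either direction, 0.641% higher and 1.87% lower in the cold. DESeq2 also called Tpi1 and Bnip3l and gave no adjusted p for Mxi1. Leaving out any 1 library gave 5 or 6 called members, while the calls over all genes went up as well, from 251 with all libraries to between 418 and 693 (3.95 to 6.57% of genes tested). Tpi1, triosephosphate isomerase, had 123.9 and 143.6 CPM in the cold, against 75.1 and 78.1 CPM at room temperature. The groups did not overlap and the log2 fold change was 0.73 (SE 0.12, adjusted p = 0.0185, edgeR; chromosome 6, 124810586 to 124814296). Of the 18 glycolysis genes tested, 10 were higher in both cold libraries, beside 32.7% of all genes, and 1 was lower in both; the median log2 fold change was 0.10. Gapdh, the dehydrogenase that follows Tpi1 in the pathway, had 1179 and 1328 CPM in the cold, against 795 and 996 CPM at room temperature (0.41, SE 0.14, adjusted p = 0.143). Eno1, enolase, had 186 and 192 CPM in the cold, against 108 and 152 CPM at room temperature (0.46, SE 0.16, adjusted p = 0.167). Neither passed the test.

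Enzyme levels were highest in dividing T cells. The cluster led by Pclaf and Birc5, genes of DNA replication and mitosis, held 4.5 and 11.3% of cold T cells and 4.9 and 11.1% of room-temperature T cells, but 23.9 and 34.5% of the class's UMIs in the cold, against 16.3 and 23.0% at room temperature. In it Tpi1 had 348.4 and 320.9 CPM in the cold, against 217.6 and 201.8 CPM at room temperature. The 18 glycolysis members summed to 7861 and 6719 CPM in these cells in the cold, against 5333 and 5308 CPM at room temperature.

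In the largest T cell cluster, led by Dapl1 and the Cd8 genes, Tpi1 had 45.4 and 46.3 CPM in the cold, against 40.1 and 32.9 CPM at room temperature. The summed level there was 2042 and 2207 CPM in the cold, against 2090 and 2312 CPM at room temperature, and the groups overlapped. Without the dividing cluster Tpi1 was no longer called (0.22, adjusted p = 0.461, edgeR), and the median of the 17 glycolysis genes then tested was -0.07, with 4 of them above 0. Slc16a1 was then called lower (-0.80, adjusted p = 0.0375, edgeR), beside 148 of all 9228 genes then tested that were also called lower. With all clusters Slc16a1 had 26.1 and 23.2 CPM in the cold, against 36.4 and 35.2 CPM at room temperature (-0.60, SE 0.16, adjusted p = 0.0889). In the largest cluster alone Slc16a1 (-0.93, adjusted p = 0.0308) and Pgam1, phosphoglycerate mutase (-0.66, adjusted p = 0.017), were called lower. Of all 7655 genes tested in that cluster, 194 were called lower as well.

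**Figure D4:**
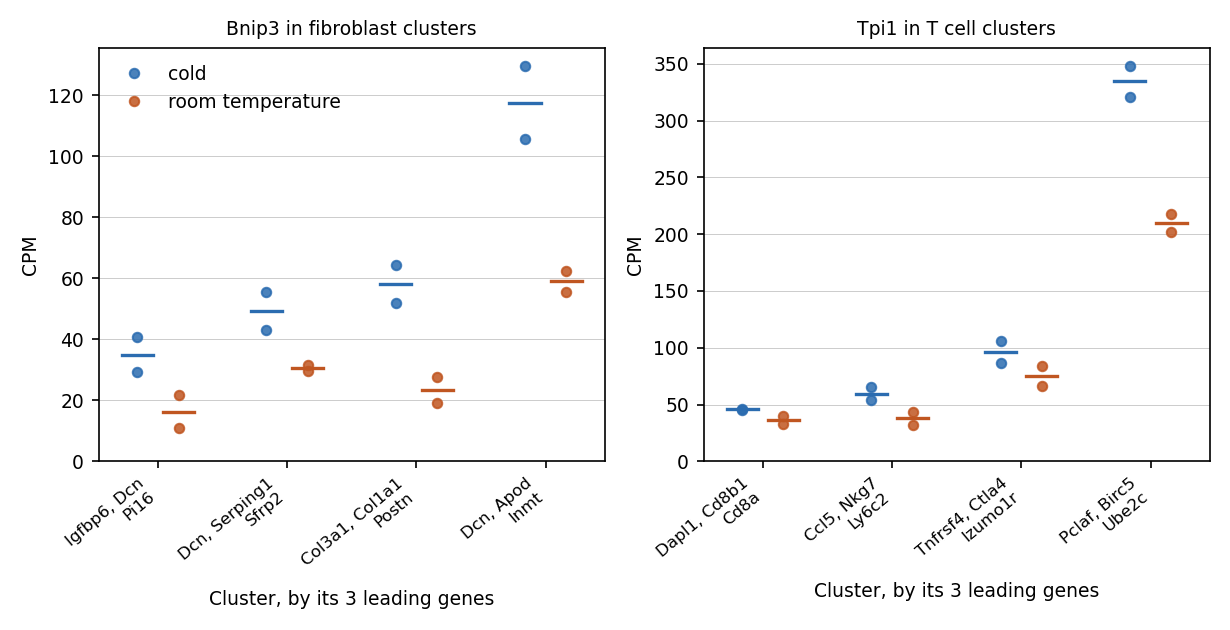
Level (CPM) of Bnip3 in 4 fibroblast clusters and of Tpi1 in 4 T cell clusters, each named by its leading genes; each point is a library, bars are means of 2, cold left of room temperature. The fibroblast cluster led by Cxcl13 and a small T cell cluster, each with 1 cell in some library, are not drawn. Cold points lie above room-temperature points for Bnip3 in all 4 clusters drawn, and the distance for Tpi1 is widest in the dividing cells.

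Of the HIF targets, 2 fell in T cells. Mxi1, an antagonist of Myc, had 11.04 and 7.48 CPM in the cold, against 22.2 and 27.7 CPM at room temperature (-1.48, SE 0.26, adjusted p = 0.0222, edgeR; chromosome 19, 53310518 to 53375810). Bnip3l had 103.7 and 101.4 CPM in the cold, against 152.2 and 141.6 CPM at room temperature (-0.58, SE 0.12, adjusted p = 0.0356; chromosome 14, 66985239 to 67008877). Neither gene overlapped between groups. Of the 10 targets tested 9 were below 0 and 6 were lower in both cold libraries, beside 19.9% of all genes, with a median log2 fold change of -0.48. The 12 targets summed to 333.5 and 333.9 CPM in the cold, against 430.9 and 410.7 CPM at room temperature.

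Ndrg1 had 11.2 and 16.7 CPM in cold T cells, against 24.1 and 22.6 CPM at room temperature (-0.84, SE 0.21, adjusted p = 0.0745), under 5% of its level in Schwann cells in every library. Kdm3a, a histone demethylase, had 22.1 and 19.9 CPM in the cold, against 36.4 and 25.03 CPM (-0.58, SE 0.20, adjusted p = 0.157). Hif1a had 59.0 and 81.0 CPM in the cold, against 81.3 and 102.2 CPM at room temperature (-0.49, SE 0.17, adjusted p = 0.15). None of these passed, and the Hif1a groups came close without overlapping.

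Without the dividing cluster Mxi1 kept its call (-1.45, adjusted p = 0.0315), while Bnip3l lost it (-0.39, adjusted p = 0.121). Leaving out cold replicate 2 also ended the Bnip3l call (-0.52, adjusted p = 0.0842), and in the largest cluster alone Mxi1 missed the threshold (-1.21, adjusted p = 0.073). In that cluster Mxi1 had 9.19 and 5.79 CPM in the cold, against 17.2 and 19.9 CPM at room temperature, from 7 to 32 UMIs a library. In T cells the mitochondrially encoded genes summed to 43495 and 42093 CPM in the cold, against 50868 and 53313 CPM at room temperature, and 9 of 13 were lower in both cold libraries. The 7 dendritic markers summed to 424 and 372 CPM in the cold, against 720 and 732 CPM at room temperature, 2 of them being lower in both cold libraries. Haemoglobin genes and other erythroid markers summed to 2469 CPM in room-temperature library 1, against 2.7 to 236.5 CPM in the other libraries. Their part in these results was not tested.

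**Figure D5:**
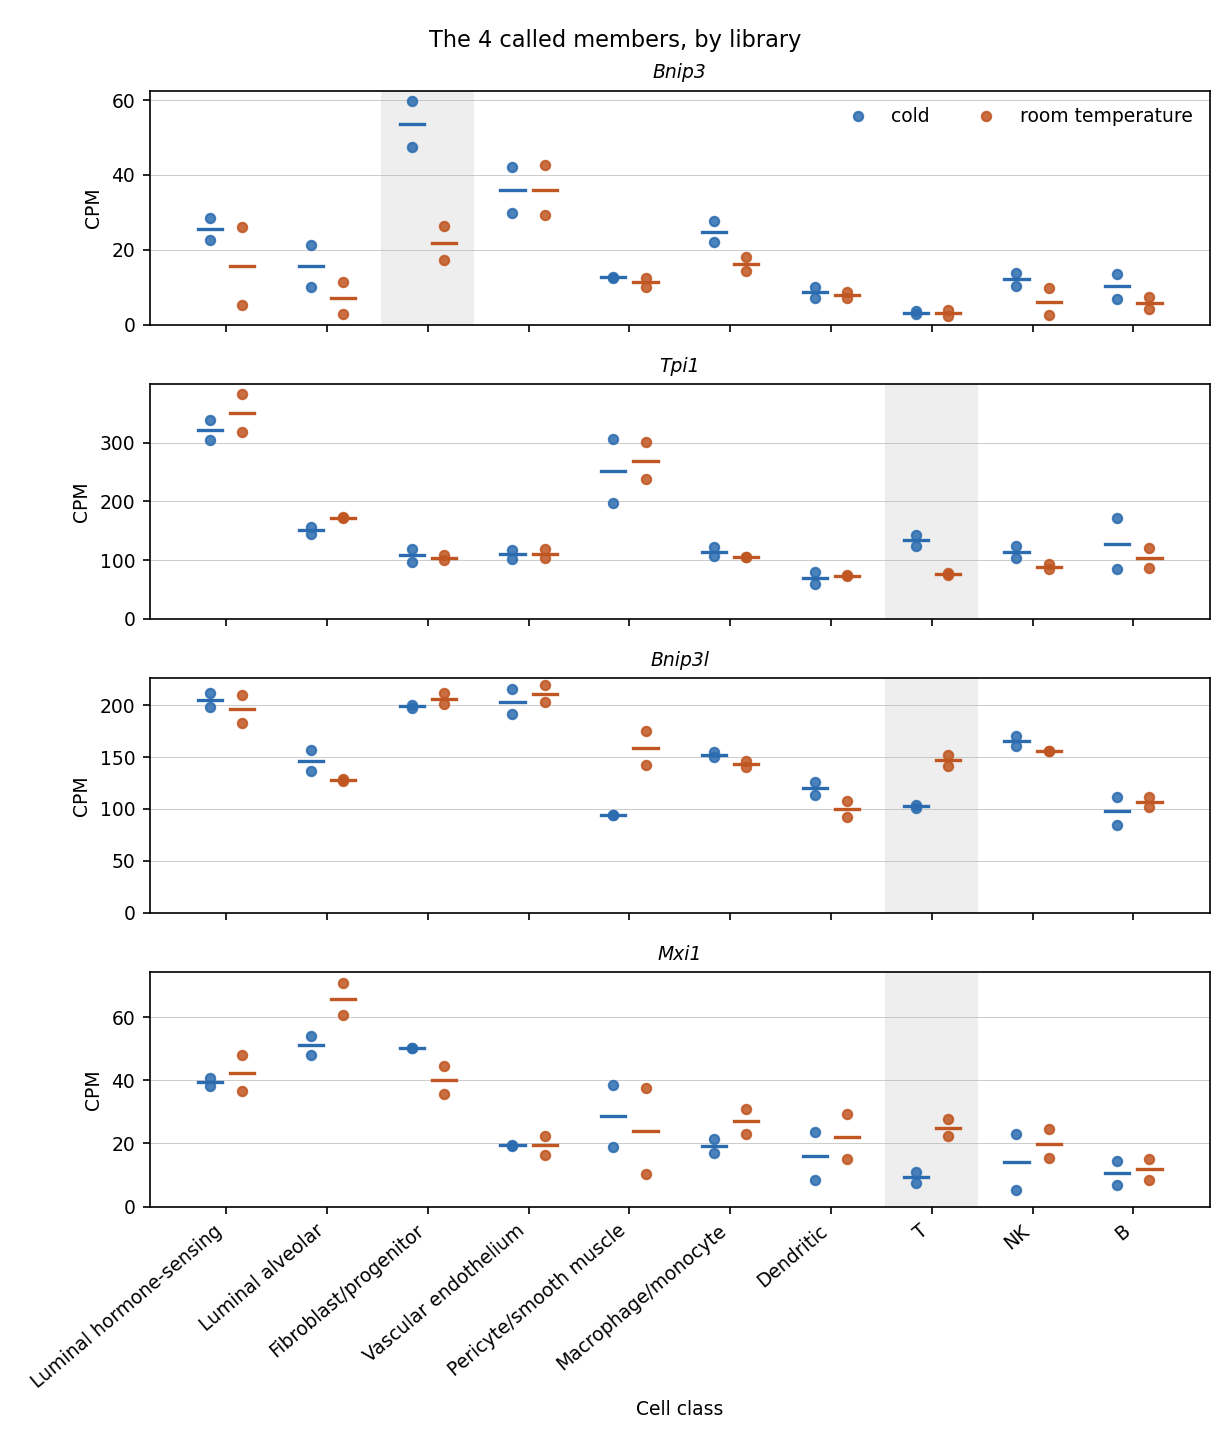
Level (CPM) of the 4 called members in the 10 tested classes; each point is a library, bars are means of 2, cold left of room temperature, and grey bands mark the class of each call. Bnip3 stands at 59.7 and 47.6 CPM in cold fibroblasts, while its cold and room-temperature points overlap in endothelium and T cells.

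Hormone-sensing luminal cells, which respond to oestrogen and progesterone, gave 0 of 28 members tested, beside 0.00791% of all genes, which is 1 gene. Bnip3 had 28.6 and 22.5 CPM in the cold, against 5.23 and 26.2 CPM at room temperature, so room-temperature library 1 alone was low (0.93, SE 0.68, adjusted p = 0.716). Slc2a1 had 76.6 and 67.0 CPM in the cold, against 44.8 and 78.9 CPM (0.30, adjusted p = 0.737). Hif1a had 73.6 and 83.6 CPM in the cold, against 94.8 and 115.5 CPM, with no overlap (-0.37, SE 0.12, adjusted p = 0.637).

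In the same cells Hk2 had 29.96 and 34.7 CPM in the cold, against 36.2 and 40.1 CPM at room temperature (-0.20), and Ldha 264.4 and 268.7 CPM, against 284.6 and 293.7 CPM (-0.08). Pgk1 had 105.4 and 126.6 CPM in the cold, against 147.9 and 126.1 CPM, and overlapped (-0.21). All 3 had adjusted p-values of at least 0.696. The cluster led by Wfdc2 and Prlr held 484 of 512 and 372 of 494 of these cells in the cold, against 132 of 416 and 100 of 132 at room temperature, and a cluster led by Upk3a was the largest in room-temperature library 1.

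In vascular endothelium 15 of 16 glycolysis genes tested had values above 0 and 7 were higher in both cold libraries, beside 19.5% of all genes, but 0 of 27 members were called, beside 0.0194% of all genes. Aldoa, the muscle-type aldolase used in most tissues, had 433.6 and 445.3 CPM in the cold, against 311.6 and 242.5 CPM at room temperature (0.70, SE 0.15, adjusted p = 0.137). Eno1 had 132.3 and 103.2 CPM in the cold, against 83.0 and 85.1 CPM at room temperature (0.52, SE 0.16, adjusted p = 0.28). The 18 members summed to 2628 and 2511 CPM in the cold, against 2230 and 2051 CPM at room temperature, without overlap. Egln1 lay the other way, with 96.5 and 97.9 CPM in the cold, against 142.7 and 133.8 CPM (-0.48, SE 0.13, adjusted p = 0.227). Without room-temperature replicate 1, Aldoa (0.86, adjusted p = 0.00809) and Ldhb (1.5, adjusted p = 0.00215) were called, 2 of 27 members beside 639 of all genes (5.91%).

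Other measures moved with the groups in endothelium. The 6 lymphatic endothelial markers stood for 7 rows, which summed to 449 and 720 CPM in the cold, against 168 and 71.7 CPM at room temperature. Of the 7 rows, 5 were higher in both cold libraries. The 6 vascular markers summed to 5349 and 4578 CPM in the cold, against 5523 and 6499 CPM at room temperature, and 2 of them were lower in both cold libraries. The cluster led by Fabp4 and Gpihbp1, genes of capillary fatty acid handling, held 30.2 and 28.3% of the class's UMIs in the cold, against 42.4 and 75.7% at room temperature. The part of these shifts in the enzyme values was not tested.

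Macrophages and monocytes had 0 of 29 members called, beside 0.452% of all genes. Hk2 had 37.1 and 40.1 CPM in the cold, against 57.7 and 67.5 CPM at room temperature (-0.71, SE 0.14, adjusted p = 0.119). Slc16a3 had 13.4 and 12.1 CPM in the cold, against 19.99 and 34.0 CPM (-1.06, SE 0.28, adjusted p = 0.194). Pfkl had 23.7 and 27.6 CPM in the cold, against 13.6 and 19.2 CPM (0.64, SE 0.21, adjusted p = 0.292), and its share of phosphofructokinase UMIs was 35.1 and 36.2% in the cold, against 21.6 and 22.7% at room temperature. None overlapped between groups and none passed. Without room-temperature library 1, 6 of 29 members were called lower, beside 472 of all genes (4.25%) in either direction, against 49 with all libraries, with Hk2 at -0.81 (adjusted p = 0.0168) and Slc16a3 at -1.39 (adjusted p = 0.00172). Without room-temperature library 2, Eno1 (0.60) and Pfkl (0.87) were called higher, beside 340 of all genes (3.07%). The cluster that led in cold macrophages (306 of 567 and 138 of 361 cells) was not the one that led at room temperature (636 of 1473 and 308 of 862), although C1qa and C1qb headed both.

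The remaining classes gave no call. Alveolar cells had 0 of 22 members called, beside 2.04% of all genes; Ldhb had 50.3 and 83.6 CPM in the cold, against 141.0 and 98.1 CPM at room temperature (-0.91, SE 0.33, adjusted p = 0.186), and it was called without cold replicate 2 (-1.33, beside 4.29% of all genes) or without room-temperature replicate 2 (-1.23, beside 4.46%). UMIs per alveolar cell were 4703 and 6074 in the cold, against 9522 and 17037 at room temperature. Dendritic cells had 0 of 24, beside 0.234%, with Ndrg1 at 28.3 and 21.7 CPM in the cold, against 39.1 and 67.3 CPM (-1.13, SE 0.34, adjusted p = 0.469). NK cells had 0 of 20, beside 1.42%, pericytes 0 of 16, beside 0.0%, and B cells 0 of 23, beside 0.0%; over all genes 254 in pericytes and 426 in B cells had an unadjusted p under 0.05, and DESeq2 called 2 and 4. Without cold replicate 1, Gapdh was called in B cells (0.71, adjusted p = 0.0117), beside 1.93% of all genes. In pericytes the glycolysis members summed to 3449 and 3509 CPM in the cold, against 2983 and 2940 CPM at room temperature. The 6 T cell markers summed to 30 and 31.3 CPM in these cells in the cold, against 78.1 and 570.5 CPM at room temperature, with 4 of the 6 lower in both cold libraries. The 6 basal and myoepithelial markers, among them the smooth muscle actin Acta2, summed to 14072 and 13515 CPM in the cold, against 10518 and 8370 CPM, and 4 of them were at 0 in all libraries. Their part was not tested.

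Whether the cold effect differed between fibroblasts and another class was tested directly in 9 pairs. Of 261 member tests 0 were called by edgeR or by DESeq2. At an unadjusted p under 0.05 (edgeR) there were 38. The share of all genes at that unadjusted threshold is not given here, so the 38 stand without a background. Of all genes, edgeR called 0.0216% against hormone-sensing cells, 1.72% against alveolar cells, 0.734% against endothelium and 0.843% against pericytes. It called 0.602% against macrophages, 0.0421% against dendritic cells, 0.0243% against T cells, 0.351% against NK cells and 0.0254% against B cells. The difference for Bnip3 was 1.36 on the log2 scale against endothelium (SE 0.30, adjusted p = 0.0806) and 1.44 against T cells (SE 0.50, adjusted p = 0.243). The Mxi1 difference against T cells was 1.82 (SE 0.32, adjusted p = 0.0825), and that for Tpi1 was -0.67 (SE 0.22, adjusted p = 0.224). The number of member calls moved when 1 library was left out. Such fits leave 1 library in a group, and their counts for these pairs are not given.

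Related genes outside the set were counted in 4 lists of 59 genes, also chosen with earlier results of these data known. Of 25 other genes of glycolysis and its branches, and of the 7 of the pentose phosphate pathway, edgeR and DESeq2 called 0 in any of the 10 classes, with 11 of 121 and 3 of 63 tests at an unadjusted p under 0.05. The 20 other hypoxia-response genes gave 4 calls of 19 tested in fibroblasts (2.77% of all genes called), 2 of 18 in T cells (2.51%) and 2 of 11 in NK cells (1.42%). They gave 1 of 12 in alveolar cells (2.04%), 1 of 17 in macrophages (0.452%) and 1 of 15 in dendritic cells (0.234%). All were rises except Hmox1 in T cells. DESeq2 also called them, other than Ddit4 in NK cells and Hmox1 in T cells, for which it gave no adjusted p. In endothelium 12 of the 18 tested were higher in both cold libraries, beside 19.5% of all genes, with a median log2 fold change of 0.48. Of these 18, edgeR called 0 and DESeq2 called 2, beside 2 and 105 of all genes. At an unadjusted p under 0.05 (edgeR) there were 8, beside 1221 of 10296 genes. The lymphatic markers and cluster shares given above moved with these values too. Ddit4, an inhibitor of mTOR signalling that glucocorticoids also induce, accounted for 5 of these 11. It had 153.3 and 139.3 CPM in cold macrophages, against 7.24 and 8.17 CPM at room temperature (4.24, SE 0.15, adjusted p = 1.84e-04), and rose by 2.88 in fibroblasts, 2.70 in dendritic cells, 1.98 in T cells and 1.42 in NK cells on the log2 scale. The call was lost in fibroblasts without the cluster led by Cxcl13 (2.72, adjusted p = 0.0575), in dendritic cells without room-temperature replicate 1 (2.76, adjusted p = 0.0818), and in NK cells without cold replicate 2 (1.16) or room-temperature replicate 2 (1.31) and with the finer clustering (1.43, adjusted p = 0.0538).

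In fibroblasts Adm, the vasodilator adrenomedullin, had 249.5 and 256.9 CPM in the cold, against 116.5 and 95.7 CPM at room temperature (1.29, SE 0.14, adjusted p = 0.0199). Cited2, a competitor of HIF for its coactivator, had 179.3 and 160.3 CPM in the cold, against 98.0 and 87.1 CPM (0.92, SE 0.14, adjusted p = 0.0328), and Mif, a secreted cytokine, 123.3 and 129.7 CPM, against 76.3 and 89.1 CPM (0.66, SE 0.11, adjusted p = 0.0426). None of the 3 was called without the cluster led by Cxcl13, where the log2 fold changes were 0.82, 0.36 and 0.86 (adjusted p = 0.0968, 0.294 and 0.0652), or without cold replicate 1. Hilpda, a lipid droplet protein, rose in NK cells (271.2 and 283.4 CPM in the cold, against 122.6 and 118.9 CPM; 1.20, SE 0.22, adjusted p = 0.0015). Bhlhe41, a circadian repressor, rose in alveolar cells (520.0 and 314.1 CPM, against 94.0 and 139.6 CPM; 1.69, SE 0.29, adjusted p = 0.0034).

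Of the 7 oxygen-sensing genes, with 45 tests over the 10 classes, 1 of 5 tested was called in T cells, beside 2.51% of all genes, and 0 elsewhere; DESeq2 called 0 in the 10 classes, and 8 of the 45 edgeR tests had an unadjusted p under 0.05. Hif1an, the asparagine hydroxylase that inhibits HIF, had 13.1 and 14.9 CPM in cold T cells, against 27.9 and 28.6 CPM at room temperature (-1.09, SE 0.17, adjusted p = 0.0155, edgeR); DESeq2 gave it no adjusted p. In the same cells Hmox1, haem oxygenase, had 5.02 and 5.23 CPM in the cold, against 12.3 and 14.9 CPM (-1.49, SE 0.28, adjusted p = 0.0306), and that call was lost without room-temperature replicate 2 (-1.30, adjusted p = 0.1). The erythroid sum of T cells given above was 2469 CPM in room-temperature library 1 and 2.7 CPM in library 2, and Hmox1 stood at 12.3 and 14.9 CPM in them. The part of erythroid RNA in the Hmox1 values was not tested.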

How the data were processed

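The members, gene lists and classes were chosen with earlier results of these data known. The deposited files hold raw counts of unique molecules per gene and cell, per the file headers and the whole-number values; Cell Ranger 3.0.2, Seurat, mm10 and GRCm38 are named in the submitters' processing notes, without a role. No filter by the authors beyond a lowest barcode total of 500 molecules could be read from the counts. Libraries were made with a 10x 3′ kit, per the labels, so counts are not proportional to transcript length, and enzymes with near-identical copies (Eno1b with 214 UMIs, Pgam2 with 81, 6 others with at most 11) could share reads.

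Cells with at least 500 genes and at most 15% mitochondrial counts were kept, doublets were scored by simulated doublets within each library and removed at 0.8% per 1000 cells, and cells were clustered (2000 variable genes, 30 components, 15 neighbours, Leiden resolution 1) with igraph 0.11.9 and leidenalg 0.10.2 on Python 3.11.15. Clusters were named from marker lists, with at least 3 markers detected; 1539 cells whose clusters were mixed or unnamed entered no class. Counts summed per class and library were tested with edgeR 4.0.16 (quasi-likelihood F-test, TMM scaling, filterByExpr) in R 4.3.3, two-sided, adjusted at 0.05 over all genes of a class; pair tests used library as a block. The scripts were tested on simulated data. Precision is limited by 2 libraries a group and by UMIs per class. Named are called members, 6 members in fibroblasts and hormone-sensing cells whatever their test (Hif1a, Slc2a1, Hk2, Ldha, Pgk1, Bnip3), and called genes of the pathway lists, up to 4 each way per class; other members named beside them were chosen after their values were seen. RLE scaling, DESeq2 1.42.0, no low-count filter, a replicate block, other cell filters, a finer clustering, and leaving out each library were tried; testing the largest cluster alone, leaving out 1 cluster and a crossed block were chosen after seeing the data.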

Additional observations from a re-analysis of the deposited data

Results flagged for a closer look

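Bnip3l and Tpi1, called in T cells, lay on the opposite side in some other classes, with both cold libraries on the other side of both room-temperature libraries; none of these differences was itself tested. Bnip3l was lower in the cold in T cells (-0.58 on the log2 scale) and higher in both cold libraries, without passing the test, in alveolar cells (0.10), macrophages (0.07), dendritic cells (0.27) and NK cells (0.08). Of all genes tested, 1794 of 6337 in alveolar cells and 2559 of 10832 in macrophages were also higher in both cold libraries. In dendritic cells 1451 of 7682 genes were, and in NK cells 1054 of 4921, so such a position is common. Tpi1 was higher in the cold in T cells (0.73) and lower in both cold libraries in alveolar cells (-0.29), without passing the test there. In alveolar cells 1137 of 6337 genes were lower in both cold libraries.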

How the results depend on the processing

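RLE scaling and doublets kept changed no call of a member. The finer clustering gave each called member the same log2 fold change and p-values as the main run, to every printed digit. It was therefore no separate check of these calls. Without the low-count filter 8 members were called in T cells, 2 in fibroblasts, 2 in macrophages and 1 each in endothelium and dendritic cells. Calls over all genes rose in each of these classes too. Their counts are given below without the numbers tested, so these member counts stand without a share of all genes. In fibroblasts 0 were called in the largest cluster alone and 0 without the cluster led by Cxcl13. Leaving out 1 library gave 5 to 6 called members in T cells, 0 to 1 in fibroblasts, alveolar cells and B cells, 0 to 6 in macrophages and 0 to 2 in endothelium. For differences between fibroblasts and another class, no filter gave 3 (endothelium), 2 (macrophages) and 1 (T cells), and the looser cell filter 1 (endothelium). Calls over all genes in these pair tests are not given here, so the member counts stand without a background. The causes were not tested.

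The labels do not say that replicate numbers pair the libraries. Replicate 1 minus replicate 2 correlated between cold and room temperature at -0.227 (hormone-sensing cells) to 0.294 (macrophages). With a replicate block 9 of 29 members were called in T cells, 2 of 28 in fibroblasts and 2 of 29 in macrophages. Over all genes the calls were 1515 of 9987 in T cells, 1115 of 11642 in fibroblasts and 363 of 10832 in macrophages. There were 177 in NK cells, 96 in dendritic cells, 8 in pericytes, 6 in endothelium and 0 in hormone-sensing cells. A crossed block, chosen after seeing the data, called 40 genes in B cells.

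Counts over all genes moved more. DESeq2 called 56 genes in hormone-sensing cells, 63 in alveolar cells, 105 in endothelium, 2 in pericytes, 170 in macrophages, 31 in dendritic cells, 17 in NK cells and 4 in B cells. Without the low-count filter the counts were 2, 323, 567, 75, 703, 181, 114 and 162 in the same classes, 1455 in fibroblasts and 993 in T cells. Doublets kept gave 55 in endothelium, the looser cell filter 25 in endothelium, 9 in dendritic cells, 395 in T cells and 2 in B cells, and the finer clustering 0 in hormone-sensing cells and 29 in endothelium. The largest cluster alone gave 30 in fibroblasts, 158 in endothelium, 26 in macrophages, 29 in dendritic cells and 20 in B cells, and fibroblasts without the cluster led by Cxcl13 gave 24. Leaving out 1 library gave 19 to 584 in fibroblasts, 26 to 109 in pericytes, 1 to 472 in macrophages, 8 to 155 in dendritic cells, 418 to 693 in T cells, 3 to 170 in B cells, 119 to 329 in alveolar cells, 2 to 639 in endothelium, 1 to 23 in hormone-sensing cells and 47 to 133 in NK cells.

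Of the recomputed mean summed levels, 24 moved by more than the spread between libraries, in 8 of the 10 tested classes, and 96 did not. With doublets kept, glycolysis members summed in the cold and at room temperature to 2252.8 and 1966.6 CPM in endothelium and 3381.3 and 2922.2 CPM in pericytes, and to 2337.2 CPM in room-temperature B cells. HIF targets summed to 1022.2 and 1042.3 CPM in endothelium, and in the cold to 612.4 CPM in fibroblasts, 385.3 CPM in macrophages and 298.1 CPM in dendritic cells. With the looser cell filter, glycolysis members summed to 2243.5 and 1968.2 CPM in endothelium, 3386.9 and 3267.3 CPM in pericytes, 2521.2 CPM in cold NK cells and 2250.7 CPM in room-temperature B cells. HIF targets summed to 1049.2 and 1028.1 CPM in endothelium, and in the cold to 420.0 CPM in pericytes, 382.4 CPM in macrophages, 292.2 CPM in dendritic cells and 336.2 CPM in T cells. With the finer clustering cold macrophages had 2115.6 CPM of glycolysis members and 381.3 CPM of HIF targets.

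Some uncalled genes changed sign. In fibroblasts Pgk1 went over -0.11 to 0.15 and was -0.01 without cold replicate 1, Ldha -0.27 to 0.01 and 0.13 in the largest cluster alone, and Hk2 -0.28 to 0.01 and 0.06 without the cluster led by Cxcl13, where the ranges leave out 1 library each. In hormone-sensing cells Slc2a1 ranged over -0.02 to 0.65, and the largest cluster gave 0.41 for Hk2, 0.12 for Ldha and 0.01 for Pgk1. The looser filter left too few pericytes to test. With 2 libraries a group, small changes were not detectable.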
